A study of Rattus norvegicus with 48 samples.

Results

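The solute carriers measured in these rat kidneys are 170 genes whose platform symbol has the form Slc, a family number, the letter a and a member number. Of 181 measured platform symbols of that form, 11 were left out by name, such as the salt cotransporters that loop and thiazide diuretics block. The 170 members were read through 2485 probe sets, from 3 to 35 per member with a median of 14, among 7997 genes in all. They fall into 43 families, of which 18 had 4 or more members and held 125 of the genes. The largest were Slc25 with 16 members, Slc6 with 14 and Slc4 and Slc7 with 9 each. Names follow the platform, and 6 members have newer symbols: Slc21a4 is now Slco1a3, Slc24a6 is Slc8b1, Slc6a20 is Slc6a20a and Slc9a10 is Slc9c1. Slc9a3r1 and Slc9a3r2 are now Nherf1 and Nherf2, scaffold proteins that bind the sodium/proton exchanger and not carriers themselves, which the name pattern included.

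Whole kidneys of male rats aged 12 weeks were studied in 4 strains, labelled F, FL, L and LF, on day 0, day 7 or day 10 of treatment, with 4 arrays in each of the 12 groups. Day 7 and day 10 rats were gavaged daily with indole-3-carbinol, which cabbages and their relatives contain and which is converted to ligands of the aryl hydrocarbon receptor. The daily dose was 100 mg/kg. Day 0 rats received only the vegetable oil that served as carrier, and no group received oil alone for 7 or 10 days, so the compound and the days of gavage cannot be told apart. The labels spell out neither the strain letters nor any allele. From outside knowledge of the study, the compound switches on a transgene driven by the Cyp1a1 promoter that raises blood pressure. The labels give 8 rats per group and do not say whether an array holds 1 rat or a pool, so a p-value here reflects array-to-array spread, which may be technical.

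Solute carriers are membrane proteins that move small molecules by facilitated diffusion, by exchange or by coupling to the gradient of an ion. In the kidney they return filtered glucose, amino acids, phosphate, bicarbonate and organic acids from the tubule to the blood, secrete drugs and other organic ions, and load medullary cells with osmolytes such as betaine, taurine and myo-inositol. One family, Slc25, sits mostly in the inner mitochondrial membrane and carries nucleotides, keto acids and amino acids between the matrix and the cytosol.

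Values are log2 intensities as the authors deposited them, and a difference of 1 is a doubling. Median log2 values of the arrays ran from 6.03 to 6.61. Cyp1a1, the classical target of the aryl hydrocarbon receptor, was 1.21 ± 0.20 (limma SE) higher at day 7 and 1.55 ± 0.20 higher at day 10, averaged over strains. Within single strains only F passed the limma test, at 2.43 and 2.62 (adjusted p = 0.000911 and 0.00078). Without passing, Cyp1a1 was at 1.36 and 1.20 in L, 0.55 and 1.85 in FL, and 0.49 and 0.51 in LF. The mean level of 7 proximal tubule markers lay between 11.28 and 11.67 in every array. In LF it lay apart from day 0 at day 7, at 11.51 to 11.67 and then 11.28 to 11.41. Elsewhere it overlapped the day 0 of the strain. Of 5 tubular injury markers measured, 4 rose at day 7 and 5 at day 10, and their mean level was 5.93 to 6.68 at day 0, 6.18 to 8.11 at day 7 and 6.42 to 8.95 at day 10. Collecting duct markers were lower at both times (4 of 5 at day 7 and 3 of 5 at day 10), as were loop and distal tubule markers (4 of 6 and 2 of 6). Pooled over strains, their mean levels overlapped between days, at 8.03 to 8.76, 7.88 to 8.45 and 7.70 to 8.53 for the collecting duct at days 0, 7 and 10. In F alone the collecting duct lay apart, at 8.53 to 8.65, 7.88 to 8.21 and 7.90 to 8.19, while the other strains overlapped their day 0. Loop and distal tubule markers lay apart from day 0 at both times in F (9.31 to 9.45, 8.74 to 9.12 and 8.87 to 9.17). The same held in LF (9.14 to 9.35, 8.84 to 9.07 and 8.86 to 9.07). They overlapped in L at both times and in FL at day 10. Proximal tubule markers were lower for 2 of 7 at day 7 and for 0 of 7 at day 10, podocyte markers for 1 of 4 and 0 of 4. In whole-kidney RNA, fewer cells of a type and less RNA per cell cannot be told apart.

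Most members differed little among the 12 groups. The SD between arrays of a group was 0.0949 to 0.562 over members with a median of 0.175, beside a median of 0.210 over all genes. The range of a member's 12 group means had a median of 0.353, beside 0.402 for all genes, and exceeded 1 in 5 members. Those 5 were Slc25a25 (1.91), Slc16a1 (1.37), Slc1a4 (1.16), Slc25a21 (1.13) and Slc2a2 (1.11), which carry ATP-Mg and phosphate, monocarboxylates, neutral amino acids, oxodicarboxylates and glucose. Intensities are not set against each other between genes, since probes differ in brightness.

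Taken by family, levels moved together only slightly. Each member was set against its own mean over the 12 groups, and a family's value in a group is the median of these deviations. Among the 18 families with 4 or more members these medians ran from -0.15 to 0.16. The glucose and polyol family Slc2 gave the highest, 0.16 at day 0 in LF, and one of the lowest, -0.15 at day 7 in FL. Slc12, the cation-chloride cotransporters, was at 0.10 in LF at day 0 and at -0.14 and -0.15 at day 7 in LF and FL. Slc25 was lowest in FL at days 0 and 7 (-0.12 and -0.11) and highest in L at days 7 and 10 (0.08 and 0.10). Slc4, the bicarbonate transporters, was highest in F at day 0 (0.09) and lowest in LF at day 7 (-0.10). The same median over all 170 members ran from -0.06 in FL at day 7 to 0.04 in LF at day 0, and over all genes from -0.06 to 0.04.

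Slc25a25 encodes the ATP-Mg/phosphate carrier, a calcium-regulated protein that sets the adenine nucleotide content of mitochondria. It was the member that rose most with induction, by 0.79 ± 0.19 at day 7 (1.72-fold, adjusted p = 0.00848) and by 1.02 ± 0.19 at day 10 (2.03-fold, adjusted p = 0.000541), as means of the 4 strains with limma. The day 7 call was lost without the arrays of replicate number 2 or 3 (adjusted p = 0.0728 and 0.0663), while the day 10 call was kept. All 12 probe sets of Slc25a25 were higher at both times, by 0.32 to 0.87 at day 7 and 0.70 to 1.28 at day 10. Among the 170 members it also had the largest SD between arrays, 0.562. It lies on chromosome 3.

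In strain F, Slc25a25 read 6.66, 6.86, 6.60 and 6.97 at day 0. At day 7 the F arrays read 8.29, 8.76, 8.93 and 8.66, and at day 10 they read 8.96, 6.76, 8.45 and 8.90. Thus every F array was above day 0 at day 7, while at day 10 replicate 2 stayed within the day 0 range. In L the day 0 arrays read 7.58, 7.39, 6.87 and 6.79, the day 7 arrays 7.56, 7.93, 7.74 and 7.88 and the day 10 arrays 8.65, 7.95, 7.98 and 7.06. The L groups overlapped at both times, by replicate 1 at day 7 and by replicate 4 at day 10. In FL the values were 7.29, 7.21, 7.11 and 7.03 at day 0, then 7.40, 6.62, 6.66 and 6.34 at day 7 and 6.98, 8.23, 9.47 and 8.77 at day 10. Here 3 of 4 arrays were below day 0 at day 7 and 3 of 4 were above it at day 10. In LF the values were 7.20, 7.46, 7.40 and 7.10 at day 0, then 9.10, 8.73, 7.79 and 7.67 at day 7 and 8.27, 8.10, 7.30 and 7.98 at day 10. All LF arrays were above day 0 at day 7 and 3 of 4 at day 10.

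**Figure D1:**
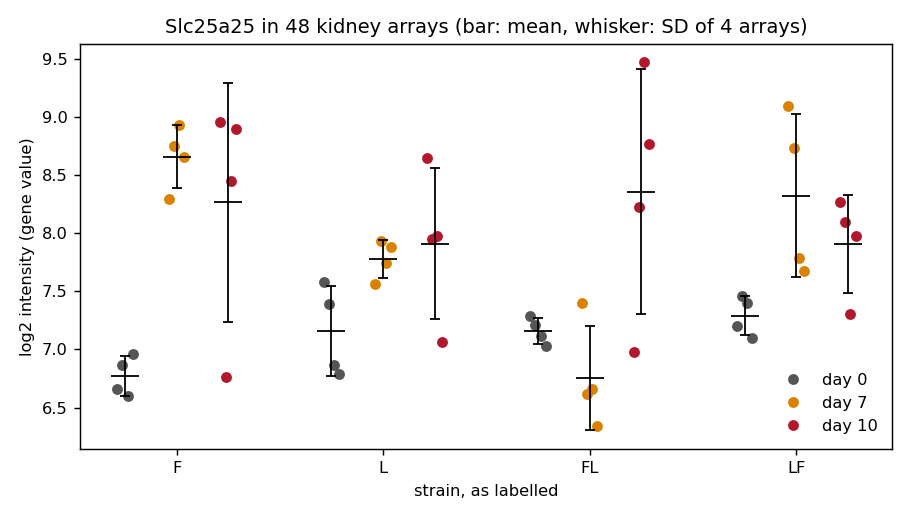
Log2 intensity of Slc25a25 (vertical axis) in each of the 48 arrays by strain (horizontal axis) and day (colour), with the mean and SD of 4 arrays. Strain F at day 7 sits between 8.29 and 8.93, above all 4 of its day 0 arrays at 6.60 to 6.97, while FL at day 7 mostly sits below its day 0.

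Within single strains the difference from day 0 was 1.89 ± 0.38 in F at day 7 (3.71-fold, adjusted p = 0.00489), the only one past the test for this gene, and lost there without replicate number 2, 3 or 4 (adjusted p = 0.052, 0.115 and 0.0604). In F at day 10 it was 2.82-fold and did not pass (adjusted p = 0.0625). In the other strains Slc25a25 differed at day 7 by 0.62 in L, -0.41 in FL and 1.03 in LF, and at day 10 by 0.75, 1.20 and 0.62, with none past the test. Whether the time courses differ between strains was tested with 6 interaction contrasts. Slc25a25 had the smallest p of the 170 members (0.00112), which did not pass over all genes (adjusted p = 0.203). The mean over strains at day 7 rested on F and LF, since without F it was 0.42 (adjusted p = 0.235) and without LF 0.70 (adjusted p = 0.191). At day 10 it passed without any 1 of the strains. The tubular injury markers rose too. Over days 0, 7 and 10 their mean level was 6.08, 7.24 and 7.06 in F, and 6.48, 7.59 and 8.53 in LF. In L it was 6.48, 6.48 and 7.16, and in FL 6.10, 6.36 and 6.84. The means of both were above day 0 in F and LF at day 7 and in every strain at day 10. In L at day 7 Slc25a25 was 0.62 above day 0, with injury markers at their day 0 level. In FL at day 7 Slc25a25 was at -0.41, with injury markers at 6.36 against 6.10 at day 0. The part of the injury markers in the Slc25a25 result was not tested.

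RefSeq promoters were at hand for 145 of the 170 members, as the 250 bases before the annotated start in GRCr8. The windows of Slc25a25, the member that rose, and of Slc2a13, the fall with the smallest p at both times, are shown 5′ to 3′ on the gene's strand because these 2 genes carry the day results. Capitals mark the cAMP response element TGACGTCA. The Slc25a25 window is chr3:36116582-36116831 (minus strand) and that of Slc2a13 is chr7:124606147-124606396 (minus strand).
Slc25a25: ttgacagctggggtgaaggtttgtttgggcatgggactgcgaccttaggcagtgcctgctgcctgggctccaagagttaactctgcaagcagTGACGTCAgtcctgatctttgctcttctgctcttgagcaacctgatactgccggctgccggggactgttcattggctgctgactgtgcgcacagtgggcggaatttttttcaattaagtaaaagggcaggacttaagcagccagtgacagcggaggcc
Slc2a13: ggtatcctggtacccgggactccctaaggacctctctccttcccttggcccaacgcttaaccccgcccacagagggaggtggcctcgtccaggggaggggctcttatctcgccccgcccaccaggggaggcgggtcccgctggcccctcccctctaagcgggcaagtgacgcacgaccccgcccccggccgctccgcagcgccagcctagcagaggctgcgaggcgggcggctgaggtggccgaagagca

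In Slc25a25 the element lies 158 to 151 bases before the start. On either strand TGACGTCA is in 466 of 27457 promoters of the same length (1.70%) and in 5 of the 145 member promoters (3.45%). The core of the xenobiotic response element, GCGTG, is in 27.2% of all promoters and in 54 member promoters (37.2%), and the E-box CACGTG in 5.79% and in 17 member promoters (11.7%). Neither of these was in the Slc25a25 window, and the 3 motifs, searched on both strands, do not overlap there. The Slc2a13 window holds none of the 3. A match describes letters in the window and not a bound site.

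At day 7, 9 of 170 members passed the test (5.29%), 1 higher and 8 lower, where 4.98% of all genes passed (1.1% higher and 3.88% lower). At day 10, 8 of 170 passed (4.71%), 1 higher and 7 lower, where 2.3% of all genes passed (1.24% higher and 1.06% lower). Slc25a25 was the member that rose at each time. The members that fell carried sugars and polyols (Slc2a13, Slc2a5), osmolytes and creatine (Slc6a6, Slc6a8, Slc6a12), monocarboxylates (Slc16a7), acidic amino acids (Slc7a13), bicarbonate (Slc4a5) and potassium chloride (Slc12a4), with the lipocalin receptor Slc22a17 beside them. Both comparisons use the same day 0 arrays. The median difference over members was -0.01 at day 7 and -0.01 at day 10, beside -0.03 and -0.003 over all genes. After quantile normalization of the arrays the day 7 split became 8 higher and 6 lower and the day 10 split 4 higher and 10 lower. The balance of directions at day 7 thus depended on the scaling. Over all genes 557 passed then at day 7, 231 of them higher, and 349 at day 10, 180 of them higher.

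Slc2a13, the proton/myo-inositol cotransporter, fell by 0.33 ± 0.07 at day 7 (1.26-fold, adjusted p = 0.00206) and by 0.33 ± 0.07 at day 10 (adjusted p = 0.00295). It was lower in 12 of 14 probe sets at day 7 and in 14 of 14 at day 10. The day 0 arrays read 7.63, 7.32, 7.28 and 7.12 in F, 7.19, 7.15, 7.47 and 6.94 in L, 7.64, 7.55, 7.13 and 7.20 in FL, and 7.19, 7.49, 7.27 and 6.93 in LF. At day 7 they read 7.05, 7.23, 7.19 and 6.92 in F, 6.87, 6.74, 7.12 and 6.84 in L, 6.93, 6.95, 6.86 and 6.91 in FL, and 6.96, 6.96, 6.82 and 6.91 in LF. The groups lay apart only in FL, and overlapped in F, L and LF. At day 10 the arrays read 7.20, 7.09, 6.90 and 6.72 in F, 6.78, 7.04, 6.80 and 7.13 in L, 7.00, 7.43, 6.91 and 6.70 in FL, and 6.93, 6.85, 7.04 and 6.73 in LF. Each strain overlapped its day 0 there, and the difference was negative in all 4 strains at both times (-0.47 to -0.24 at day 7 and -0.37 to -0.25 at day 10). Among the falls only Slc2a13 passed at both times under every other setting and with every single array left out. With all 12 arrays of 1 replicate number left out it did not pass without number 1 or 2 at day 7 (adjusted p = 0.0537 and 0.0629) or without number 1 or 3 at day 10 (0.0888 and 0.0689).

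Slc4a5, the electrogenic sodium bicarbonate cotransporter NBCe2, fell by 0.22 ± 0.05 at day 7 (adjusted p = 0.00928, 28 of 32 probe sets lower) and by 0.23 ± 0.05 at day 10 (adjusted p = 0.00915, 30 of 32). In F it read 5.58, 5.71, 5.74 and 5.66 at day 0, 5.29, 5.30, 5.27 and 5.17 at day 7 and 5.37, 5.37, 5.38 and 5.35 at day 10. All F arrays of both later days were below day 0. In LF it read 5.38, 5.26, 5.33 and 5.38 at day 0, 4.99, 5.23, 5.28 and 5.28 at day 7 and 4.79, 5.05, 5.24 and 4.94 at day 10. The LF groups overlapped at day 7 and lay apart at day 10. L read 5.57, 5.41, 5.58 and 5.36, then 5.33, 5.21, 5.23 and 5.41, then 5.34, 5.43, 5.34 and 5.42 at days 0, 7 and 10. FL read 5.98, 5.86, 5.68 and 5.72, then 5.49, 5.62, 5.80 and 5.74, then 6.12, 5.61, 5.29 and 5.42, and both of these strains overlapped their day 0 at each time.

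**Figure D2:**
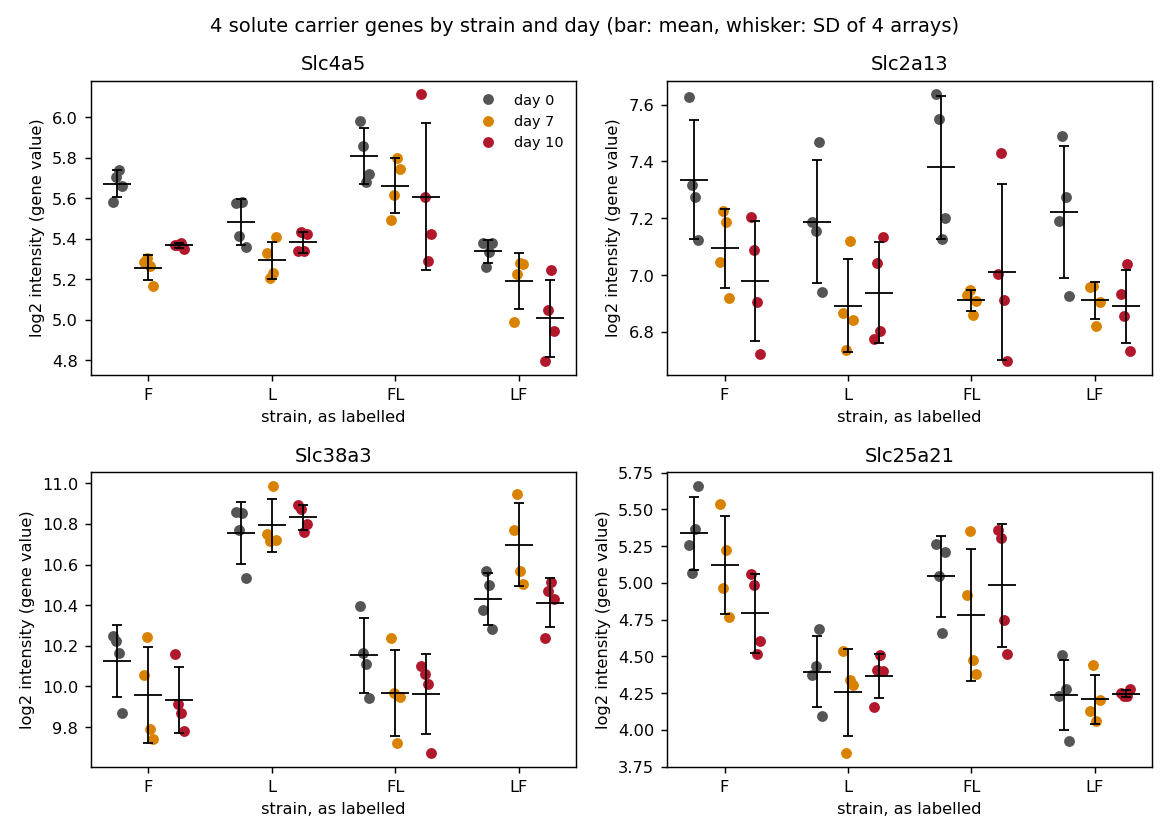
Log2 intensity (vertical axes, each with its own range) of Slc4a5, Slc2a13, Slc38a3 and Slc25a21 in each array by strain (horizontal axis) and day (colour), with the mean and SD of 4 arrays. Slc4a5 is below day 0 in every F array of days 7 and 10, while Slc38a3 sits lower and Slc25a21 higher in F and FL than in L and LF on most arrays.

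Among the Slc6 carriers, which use the sodium gradient to take up amino acids and osmolytes, the creatine transporter Slc6a8 fell by 0.26 ± 0.06 at day 7 (adjusted p = 0.00584) and by 0.21 ± 0.06 at day 10 (adjusted p = 0.0496). Its 16 arrays ran from 10.07 to 10.69 with a median of 10.40 at day 0, from 9.81 to 10.36 with a median of 10.11 at day 7, and from 9.78 to 10.50 with a median of 10.19 at day 10. The ranges overlapped, and all 15 probe sets were lower at both times. The taurine transporter Slc6a6 fell by 0.23 ± 0.07 at day 7 (adjusted p = 0.0357). Its arrays ran from 9.47 to 9.93 (median 9.77) at day 0 and from 9.18 to 9.89 (median 9.51) at day 7, with overlap. At day 10 Slc6a6 was at -0.22 ± 0.07 and did not pass (adjusted p = 0.0668, and 0.0374 with the replicate number as a block). The betaine transporter Slc6a12, which loads medullary cells under osmotic stress, was at -0.26 ± 0.11 at day 7 (adjusted p = 0.148) and fell by 0.43 ± 0.11 at day 10 (adjusted p = 0.0176). In F it read 6.67, 6.62, 6.57 and 6.58 at day 0 and 6.10, 6.0003, 6.37 and 6.10 at day 10. In L it read 6.74, 6.43, 6.76 and 6.55, then 6.07, 6.17, 5.65 and 5.97, and in LF 7.10, 6.37, 6.31 and 6.62, then 5.88, 5.79, 5.88 and 6.01. All day 10 arrays of these 3 strains were below their day 0. In FL Slc6a12 read 6.66, 6.11, 6.08 and 6.28 at day 0 and 6.12 to 6.70 at day 10, with overlap. The remaining members of the family did not pass, and 7 of 14 Slc6 differences were negative at each time.

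The fructose transporter Slc2a5, found in the last part of the proximal tubule, fell by 0.38 ± 0.09 at day 10 (adjusted p = 0.0128), with 14 of 14 probe sets lower. Its arrays ran from 8.02 to 8.82 (median 8.35) at day 0 and from 7.43 to 8.50 (median 8.06) at day 10, with overlap. At day 7 it was at -0.28 ± 0.09 (adjusted p = 0.0623, and 0.0147 with the replicate number as a block). Among the 7 Slc2 members 6 had a negative difference at day 7 and 5 at day 10. After quantile normalization 3 of 7 were negative at day 7 and 5 at day 10. The neuronal-type glucose transporter Slc2a3 was at 0.20 ± 0.07 at day 10 and did not pass (adjusted p = 0.124).

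Slc16a7, the monocarboxylate transporter MCT2, which carries lactate and pyruvate, fell by 0.33 ± 0.08 at day 7 (adjusted p = 0.0113) and by 0.29 ± 0.08 at day 10 (adjusted p = 0.0492), in 7 of 7 probe sets at both times. Its arrays ran from 10.04 to 10.65 (median 10.37) at day 0, from 9.59 to 10.32 (median 10.02) at day 7 and from 9.36 to 10.49 (median 10.16) at day 10. Day 7 arrays of F and LF were all below their day 0, and the other groups overlapped. Slc7a13, an acidic amino acid and cystine transporter of the proximal tubule, fell by 0.23 ± 0.07 at day 7 (adjusted p = 0.0365), again in 7 of 7 probe sets. It ran from 12.05 to 12.45 (median 12.32) at day 0 and from 11.65 to 12.37 (median 12.09) at day 7, and at day 10 was at -0.18 ± 0.07 (adjusted p = 0.214). The groups overlapped in F, L and FL and lay apart in LF.

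Slc12a4, the potassium chloride cotransporter KCC1, fell by 0.20 ± 0.05 at day 7 (adjusted p = 0.006) and was at -0.08 ± 0.05 at day 10 (adjusted p = 0.639). It ran from 7.19 to 7.75 (median 7.43) at day 0 and from 7.00 to 7.37 (median 7.24) at day 7, with overlap in every strain. Slc22a17, a receptor for lipocalin-2 that takes up iron-loaded protein in distal segments, fell by 0.19 ± 0.05 at day 7 (adjusted p = 0.00974) and by 0.17 ± 0.05 at day 10 (adjusted p = 0.0348). In F it read 7.07, 6.97, 6.75 and 6.86 at day 0, 6.57, 6.64, 6.56 and 6.48 at day 7 and 6.63, 6.38, 6.61 and 6.54 at day 10. All later F arrays were below day 0, while the other 3 strains overlapped. Neither passed after quantile normalization, with Slc12a4 at -0.10 at day 7 and Slc22a17 at -0.10 at day 7 and -0.16 at day 10.

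**Figure D3:**
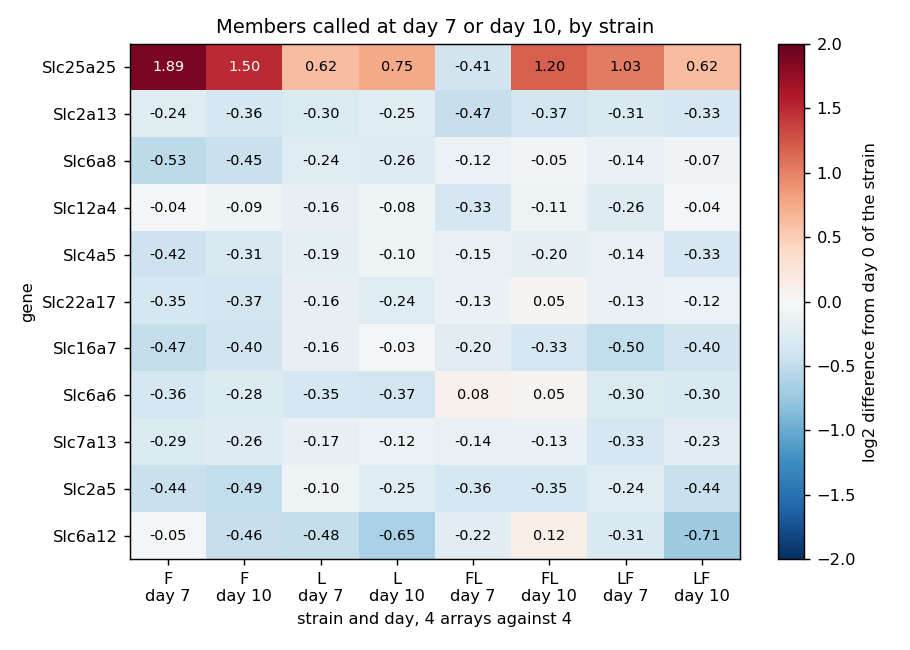
Log2 difference from day 0 of the same strain (colour and printed value) for the 11 members called at day 7 or day 10 as a mean of strains (rows), by strain and day (columns, 4 arrays against 4). Slc25a25 runs from -0.41 in FL at day 7 to 1.89 in F at day 7, and Slc2a13 is negative in every column, from -0.47 to -0.24.

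Several of these falls rested on strains F and LF or on few arrays. Without strain F the count at day 7 was 2 of 170 and without LF it was 2, where 207 and 66 of 7997 genes passed. At day 10 it was also 2 without either, where 82 and 74 of all genes passed. Without strain L the day 10 count was 4, where 145 of all genes passed. The count over all genes thus dropped as well, from 398 at day 7 and 184 at day 10 with every strain. As arrays were left out, the member count at day 7 ran from 0 (without replicate 2) to 19 (without L day 0 replicate 4). At day 10 it ran from 1 (without replicate 3) to 12 (without FL day 10 replicate 1). Counts over all genes in these fits are not given here, so the ranges do not show a shift of the members alone. Leaving out single arrays removed the call of Slc6a6 for 13 arrays and of Slc7a13 for 15 at day 7, and at day 10 that of Slc22a17 for 15, Slc16a7 for 37 and Slc6a8 for 36 of 48. Every fall called at day 7 or day 10 was lost without at least 1 replicate number. Slc4a5 was lost at day 7 without number 2 (adjusted p = 0.156) and at day 10 without 2, 3 or 4 (0.131, 0.0969 and 0.0881). At day 10 Slc6a12 was lost without number 1 or 3 (0.238 and 0.144) and Slc2a5 without 1, 2 or 3 (0.0781, 0.102 and 0.129). With the replicate number as a block 24 members passed at day 7 (14.1%), 4 higher and 20 lower, where 11.2% of all genes passed in that fit. Among those added were Slc26a1 (sulfate, 0.18, adjusted p = 0.0363), Slc25a22 (mitochondrial glutamate, 0.19, adjusted p = 0.016), Slc26a4 (pendrin, a chloride and bicarbonate exchanger, 0.24, adjusted p = 0.0172), Slc26a2 (sulfate, -0.23, adjusted p = 0.013), Slc1a4 (neutral amino acids, -0.27, adjusted p = 0.0312) and Slc39a8 (zinc and manganese, -0.21, adjusted p = 0.0435). The collecting duct and distal tubule markers fell at the same times, and proximal tubule markers lay lower in LF at day 7. The part of these markers in the falls was not tested.

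Members with the smallest p among those higher but not past the test in the fit without a block were, at day 7, Slc26a1 (0.18 ± 0.06, adjusted p = 0.0739), Slc25a22 (0.19 ± 0.06, adjusted p = 0.0822), Slc25a34 (0.24 ± 0.09, adjusted p = 0.113) and the zinc transporter Slc30a3 (0.13 ± 0.05, adjusted p = 0.123). At day 10 they were the nucleoside transporter Slc29a2 (0.16 ± 0.05, adjusted p = 0.0923), the bile acid transporter Slc10a1 (0.24 ± 0.08, adjusted p = 0.0976), Slc26a4 (0.28 ± 0.09, adjusted p = 0.12) and Slc2a3. Slc26a4 was higher in all 23 of its probe sets at day 10, and passed there with the replicate block (adjusted p = 0.00782). The metal carriers (11 members) and the carriers of bile acids, lipids and vitamins (15) had 0 members past the test at either time. The nucleoside and nucleotide sugar carriers (8) also had 0. Among 47 carriers of amino acids, peptides and neurotransmitters 3 fell at day 7 and 2 at day 10. Of 14 members of the families grouped under sugars, Slc5 included, 1 fell at day 7 and 2 at day 10. These groups go by family number, so a group can hold members that carry something else. Of 17 members of families that exchange or cotransport sodium, potassium, protons or calcium, 1 fell at day 7 and 0 at day 10. The scaffolds Slc9a3r1 and Slc9a3r2 are counted among these 17. In this group the proximal sodium/proton exchanger Slc9a3 was at -0.15 ± 0.06 at day 7 (adjusted p = 0.151) and the basolateral NKCC1, Slc12a2, at 0.15 ± 0.08 at day 10 (adjusted p = 0.604). Organic cation transporter Slc22a2, which takes up drugs such as metformin, was at -0.13 ± 0.05 at day 10 (adjusted p = 0.268). The urea transporter Slc14a1 was at -0.22 ± 0.07 (adjusted p = 0.104).

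Day 10 and day 7 did not separate the members. With limma 0 of 170 passed, where 0.075% of all genes passed. At an unadjusted p under 0.05 were 7 of 170 members, beside 1051 of all genes. Differences ran from -0.19 to 0.23.

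Within a single strain few members passed. In F at day 7 the test called 2 of 170, Slc25a25 and Slc6a8, where 0.688% of all genes passed (0.438% higher and 0.25% lower). Slc6a8 fell there by 0.53 ± 0.12 (1.44-fold, adjusted p = 0.0134), from 10.69, 10.42, 10.35 and 10.40 at day 0 to 9.96, 9.81, 9.92 and 10.04. These arrays did not overlap, though the call was lost without F day 0 replicate 1 or F day 7 replicate 2. With the replicate block 5 members passed in F at day 7 (2.94%, beside 0.938% of all genes), the others being Slc26a4 (0.60, adjusted p = 0.0106), Slc22a17 (-0.35, adjusted p = 0.0309) and Slc25a34 (0.69, adjusted p = 0.0435). In F at day 10 limma called 0 of 170, where 0.375% of all genes passed. An unadjusted p under 0.05 was held by 22 of 170 members, beside 713 of 7997 genes. With the block 1 passed there (Slc22a17, beside 0.65% of all genes). In LF at day 7 limma called 0, where 2.44% of all genes passed (0.388% higher and 2.05% lower). There 29 of 170 members had an unadjusted p under 0.05, beside 1540 of 7997 genes. With the block 6 fell there (3.53%), Slc12a4, Slc16a7 and Slc9a3 (-0.32, adjusted p = 0.0423) among them, which is a smaller share than the 8.54% of all genes called in that fit. In LF at day 10 limma called 0, where 1.04% of all genes passed (0.675% higher and 0.363% lower). At an unadjusted p under 0.05 were 18 members, beside 534 of all genes. In FL limma called 0 members at day 7 and 0 at day 10 (0.15% and 0.025% of all genes). At an unadjusted p under 0.05 were 10 and 8 members, beside 491 and 328 of all genes. With the block 1 passed at day 7 (Slc12a4, -0.33, beside 0.238% of all genes). In L limma called 0 members at each time and 0% of all genes. There 8 and 10 members had an unadjusted p under 0.05, beside 340 and 336 of all genes. The difference between the responses of F and L was itself past the test for 0 members at day 7 and 0 at day 10 with limma, and for 0% of all genes. At an unadjusted p under 0.05 there were 8 and 10, beside 312 and 479 of all genes. The interaction of strain and day was called for 0 members and for 0.2% of all genes. At an unadjusted p under 0.05 there were 10 members, beside 537 of all genes.

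F and FL, whose labels share the first letter, were set against L and LF over the 3 days, 24 arrays against 24. Of 170 members 47 passed (27.6%), 10 higher in F and FL and 37 lower, where 17.3% of all genes passed (4.29% higher and 13% lower). The median difference over members was -0.01, beside -0.02 over all genes. After quantile normalization 62 passed, 34 higher and 28 lower, so the excess of lower members depended on the scaling. All genes shifted alike, with 809 of 1617 called genes higher after it and 343 of 1385 before. Means over days include days 7 and 10, at which marker levels differed between strains. Tubular injury markers differed at day 0 as well, at a mean level of 6.08 in F and 6.10 in FL against 6.48 in L and in LF. With limma 0 of 5 tubular injury markers were higher and 2 were lower in F and FL, with a median difference of -0.30, and 2 of 5 collecting duct markers were lower. Their part in these differences was not tested.

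The member with the smallest p was Slc38a3, the glutamine transporter SNAT3, through which the proximal tubule takes up glutamine for ammonia production. It was lower in F and FL by 0.64 ± 0.05 (1.55-fold, adjusted p = 2.32e-13), in 19 of 19 probe sets. Over 12 arrays each it ran from 9.74 to 10.25 (median 9.99) in F, 9.67 to 10.40 (median 10.04) in FL, 10.54 to 10.99 (median 10.78) in L and 10.24 to 10.95 (median 10.50) in LF. F lay wholly below L, while FL and LF overlapped. At day 0 F read 10.25, 10.22, 10.16 and 9.87 and L read 10.86, 10.77, 10.86 and 10.54. The day 0 arrays did not overlap, and F minus L was -0.63 ± 0.12 (adjusted p = 0.00146).

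Slc25a21, the mitochondrial carrier of oxodicarboxylates from lysine and tryptophan breakdown, was higher in F and FL by 0.72 ± 0.08 (1.65-fold, adjusted p = 1.82e-09), in 12 of 12 probe sets. It ran from 4.52 to 5.66 (median 5.06) in F, 4.38 to 5.36 (median 4.98) in FL, 3.84 to 4.69 (median 4.39) in L and 3.93 to 4.51 (median 4.23) in LF. Only the lowest arrays of F and FL reached the range of L. At day 0 F read 5.26, 5.06, 5.36 and 5.66 and L read 4.37, 4.43, 4.69 and 4.09, without overlap, and F minus L was 0.94 ± 0.19 (adjusted p = 0.0029). Slc25a21 and Slc38a3 were the 2 members past the test for F minus L at day 0, where 1.35% of all genes passed (0.575% higher and 0.775% lower). Each was lost without 1 replicate number, Slc38a3 without number 3 (adjusted p = 0.0654) and Slc25a21 without number 4 (adjusted p = 0.0798). With the replicate block 4 passed there (2.35%, beside 2% of all genes), the others being Slc1a4 (0.62, adjusted p = 0.0373) and Slc44a3 (-0.51, adjusted p = 0.0158).

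The sugar carriers Slc2a2, Slc2a4 and Slc2a5 were all lower in F and FL. Slc2a2, GLUT2, through which reabsorbed glucose leaves the proximal tubule, was lower by 0.58 ± 0.06 (adjusted p = 9.21e-10), with 12 of 13 probe sets lower. Its medians were 8.39 in F and 8.31 in FL, against 8.83 in L and 9.20 in LF, with ranges that overlapped (8.22 to 8.68, 7.99 to 8.82, 8.48 to 9.12 and 8.59 to 9.46). Slc2a4, the insulin-responsive GLUT4, was lower by 0.50 ± 0.07 (adjusted p = 1.28e-07) and Slc2a5 by 0.33 ± 0.08 (adjusted p = 0.00118). The sodium/myo-inositol cotransporter Slc5a3 was higher by 0.25 ± 0.09 (adjusted p = 0.0406), but not when probe sets were averaged (adjusted p = 0.0563) or when any 1 of 20 arrays was left out.

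Of the 9 Slc4 bicarbonate transporters all 9 had a positive difference, also after quantile normalization, and 3 passed. They were Slc4a5 (0.28 ± 0.04, adjusted p = 6.21e-06), the sodium-driven Slc4a10 (0.16 ± 0.04, adjusted p = 0.000927) and the sodium-driven chloride bicarbonate exchanger Slc4a8 (0.13 ± 0.04, adjusted p = 0.0163). The family median was 0.08, beside -0.02 over all genes. Among other ion carriers Slc26a1, the basolateral sulfate exchanger, was lower by 0.32 ± 0.05 (adjusted p = 4.36e-06) and Slc9a3, the NHE3 exchanger of the proximal brush border, by 0.25 ± 0.05 (adjusted p = 0.000222). The scaffold Slc9a3r1, which anchors Slc9a3, was lower by 0.22 ± 0.04 (adjusted p = 3.21e-05), in 6 of 6 probe sets. Slc9a2, the NHE2 exchanger, was higher by 0.16 ± 0.05 (adjusted p = 0.0255), though not when probe sets were averaged (adjusted p = 0.0878). Slc12a2 was lower by 0.29 ± 0.07 (adjusted p = 0.00117).

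Mitochondrial carriers were lower in F and FL in 13 of 16 members, of which 5 passed lower and Slc25a21 higher. After quantile normalization 11 of 16 were negative, 2 passed lower and 2 higher. Slc25a10, the dicarboxylate carrier, was lower by 0.24 ± 0.05 (adjusted p = 0.000568). Slc25a25 did not pass here. Of 47 amino acid, peptide and neurotransmitter carriers 1 was higher, Slc1a4 (ASCT1, small neutral amino acids), by 0.57 ± 0.07 (adjusted p = 1.04e-07, 8 of 8 probe sets). Lower were 3, among them Slc38a3 and the serotonin transporter Slc6a4 (0.20 ± 0.04 lower, adjusted p = 8.05e-05). The choline transporter-like Slc44a3 was lower by 0.63 ± 0.07 (adjusted p = 3.11e-09, 15 of 15 probe sets), from medians of 8.27 in L and 8.04 in LF to 7.62 in F and 7.48 in FL. Urea transporter Slc14a1 was lower by 0.32 ± 0.06 (adjusted p = 4.32e-05), carnitine transporter Slc22a5 by 0.21 ± 0.05 (adjusted p = 0.00103) and lysosomal Slc46a3 by 0.32 ± 0.07 (adjusted p = 0.000789).

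Among the metal carriers 5 of 11 were lower and the zinc transporter Slc30a3 was higher, by 0.14 ± 0.04 (adjusted p = 0.00988). After quantile normalization 3 were lower and 2 higher. The citrate transporter Slc13a5 was higher by 0.13 ± 0.04 (adjusted p = 0.0238) and Slc10a4 by 0.20 ± 0.07 (adjusted p = 0.0337). Neither passed when probe sets were averaged (adjusted p = 0.125 for both), and Slc10a4 was lost when any 1 of 12 arrays was left out. The nucleoside transporter Slc29a1 was lower by 0.17 ± 0.04 (adjusted p = 0.000506), but at -0.09 after quantile normalization (adjusted p = 0.203). The remaining 22 members that were lower ranged from -0.45 to -0.12. The lowest was Slc16a1, the monocarboxylate transporter MCT1 (-0.45 ± 0.11, adjusted p = 0.00206).

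**Figure D4:**
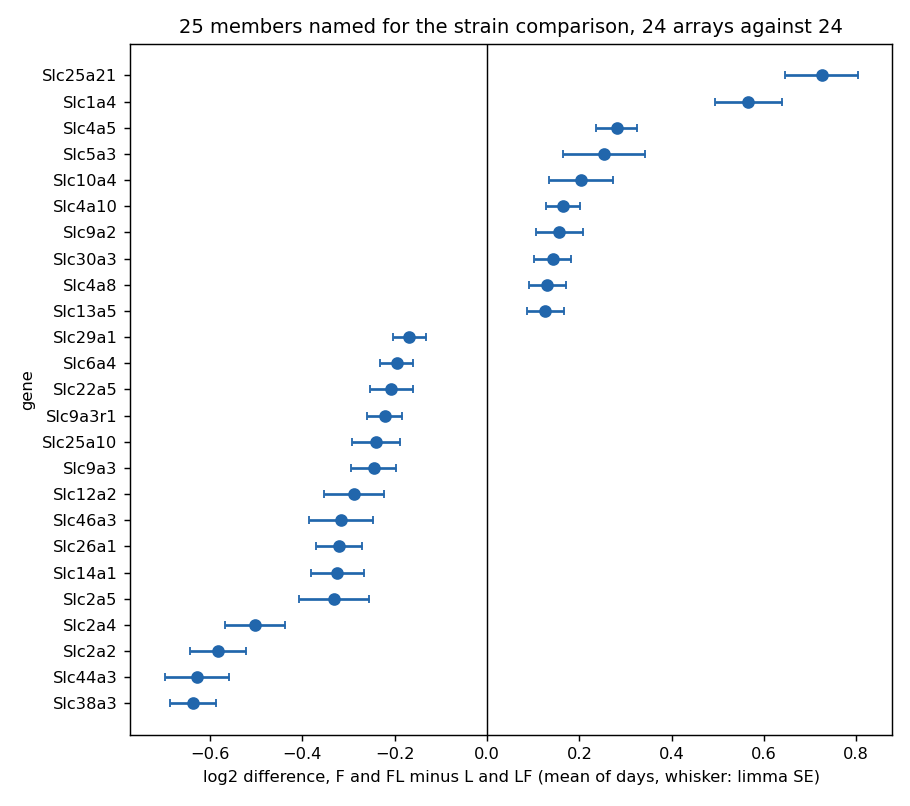
Log2 difference of F and FL minus L and LF over the 3 days (horizontal axis, 24 arrays against 24) with its limma SE for 25 members (vertical axis), 10 higher and the 15 lower with the smallest p. Slc25a21 (0.72) and Slc1a4 (0.57) are the highest, and Slc38a3 (-0.64), Slc44a3 (-0.63), Slc2a2 (-0.58) and Slc2a4 (-0.50) the lowest.

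**Figure D5:**
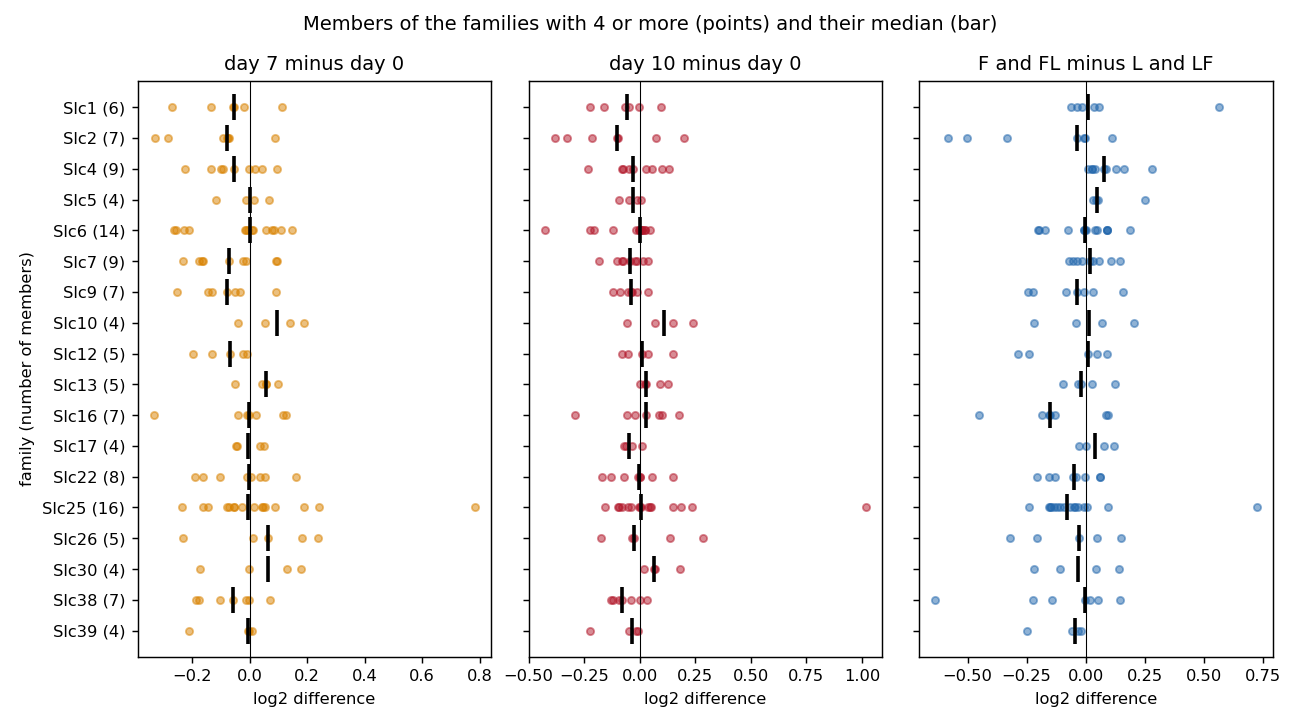
Log2 differences (horizontal axes) of every member of the 18 families with 4 or more members (points) and the family median (bar), at day 7 and day 10 against day 0 and for F and FL against L and LF. Most families straddle 0 in each panel, Slc25a25 stands alone at 0.79 and 1.02 in the Slc25 row, and all 9 Slc4 members lie above 0 in the strain panel.

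Set by the other letter, F and LF against L and FL, 1 of 170 members passed, where 0.763% of all genes did. Slc4a5 was lower in F and LF by 0.23 ± 0.04 (adjusted p = 0.00218), in 32 of 32 probe sets. Over 12 arrays its median was 5.70 in FL (5.29 to 6.12), 5.38 in L (5.21 to 5.58), 5.37 in F (5.17 to 5.74) and 5.25 in LF (4.79 to 5.38). FL was thus the highest and LF the lowest, while F and L overlapped almost throughout. The call was lost without replicate number 2 or 4 (adjusted p = 0.0977 and 0.0538). With the replicate block 5 passed (2.94%, beside 1.41% of all genes), the others being Slc22a9 (0.25, adjusted p = 0.0276), Slc26a4 (0.21, adjusted p = 0.0348), Slc2a2 (0.21, adjusted p = 0.0491) and Slc38a3 (-0.15, adjusted p = 0.0472).

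Exon arrays also show whether the probe sets of a gene differ alike. In the comparison of F and FL with L and LF, use of probe sets differed for 33 of 170 members, where 14% of all genes with more than 1 probe set did (limma diffSplice). Of these 33, 18 also passed on the gene value, out of 47 that did. Slc25a10 had 1 probe set at -1.55 while the median of its other 11 was -0.17. In Slc9a3 1 of 30 probe sets was at -1.34, with a median of -0.23 for the rest, and in Slc12a8 1 of 19 was at -1.47, with -0.23 for the rest. Slc11a2, the divalent metal transporter that takes up iron, had 1 of 23 at 1.13 against a median of -0.20. Slc24a6, the mitochondrial sodium/calcium exchanger, had 1 of 18 at 1.43 against 0.11, and its gene value did not pass (0.12, adjusted p = 0.11, and 0.0279 with the replicate block). Whether such a probe set reads a different exon or a sequence difference under a probe was not tested. At day 10 use of probe sets differed for 1 of 170 members, where 1.12% of all genes did. In that gene, the nucleoside transporter Slc28a1, 1 of 20 probe sets was at -0.59 while the median of the rest was 0.12 (adjusted p = 0.0418). With the replicate block the count was 4, and the share of all genes in that fit is not given here.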

How the data were processed

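The deposited values are log2 intensities of 92401 exon array probe sets in 48 arrays, made by the authors with RMA, per the submitters' processing notes, which also name limma and no versions. Array medians of these values still differed, so another scaling is among the alternatives. Of the probe sets 85406 had 1 platform symbol and were used, 1803 had several and 5192 none. Values of a gene are a Tukey median polish over its probe sets (7997 genes). The precision is limited by the number of arrays, 4 per group.

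A model of the 12 group means was fitted over all genes with limma 3.58.1 in R 4.3.3, with Benjamini-Hochberg adjustment over 7997 genes, and an adjusted p under 0.05 counted as past the test. Differences among the probe sets of a gene were tested with diffSplice (7510 genes). The fit was tested on simulated data.

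Replicate numbers share the start of the array names in the labels and were taken to pair the arrays in the replicate block only. The main fit leaves them out, so its p-values ignore any such pairing. Deviations of same-numbered arrays had a mean correlation of 0.0948 (264 pairs), against -0.0316 for other pairs (792). A correlation over 0.1 was held by 112 of the 264 and by 156 of the 792. Of 48 arrays 29 correlated best with a same-numbered array among those of other groups. The block is an alternative here and its values stand beside a result where it changed the call.

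Alternatives were quantile normalization of gene values, the mean of probe sets, leaving out the 33.3% of genes with the lowest mean, an intensity trend with a robust prior, the compared groups alone, each strain, array or replicate number left out, and the replicate block. Named were Slc25a25 and, for the day and first strain comparison, up to 15 members per direction past the test by p (the next by p up to 5 where fewer passed), up to 5 per direction in other comparisons, 5 for probe set use, and up to 3 per role group by p at day 10. The members, lists and groupings were chosen with earlier results of these data known. A planned ordering of members by intensity was left out, since intensities are not comparable between genes. Promoters are from RefSeq (GRCr8).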

Additional observations from a re-analysis of the deposited data

Results flagged for a closer look

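In 132 groups of 4 arrays, for the 11 members called at day 7 or day 10, 5 held 1 array far from the other 3. Chance alone does so in about 1 group in 20. The creatine transporter Slc6a8 read 10.07 in L day 0 replicate 4, where the others read 10.52 to 10.54. The potassium chloride cotransporter Slc12a4 read 7.44 in F day 0 replicate 1 (others 7.32 to 7.34) and 7.10 in F day 10 replicate 4 (others 7.30 to 7.34). The acidic amino acid transporter Slc7a13 read 12.11 in L day 10 replicate 4 (others 12.27 to 12.28). The fructose transporter Slc2a5 read 8.54 in F day 0 replicate 1 (others 8.02 to 8.08).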

How the results depend on the processing

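Of 47 named differences past the test, 20 were lost under at least 1 setting other than left-out arrays, 8 without at least 1 single array and 28 without at least 1 replicate number (12 arrays). The 18 that stayed past it under every alternative run were Slc25a25 at day 10 and 17 members between F and FL and L and LF. None reversed. At day 7 the count of members called was 24 with the replicate block, where 894 of 7997 genes passed. It was 14 with quantile normalization (557 of all genes) and 16 with the mean of probe sets (470). Without dim genes it was 14 of 133 members, where 472 of 5331 genes passed. It was 16 with the compared groups alone (536 of all genes), 2 without strain F (207) and 2 without LF (66). At day 10 it was 14 with quantile normalization (349 of all genes) and 5 with the compared groups alone (159). It was 2 there without F (82), 4 without L (145) and 2 without LF (74). Within F at day 7 it was 5 with the block (75 of all genes) and 6 with quantile normalization (121). Without dim genes it was 4 of 133 there (54 of 5331 genes). Within F at day 10 it was 1, 2 and 2 under the same settings, where 52, 66 and 33 genes passed. Within FL at day 7 it was 1 with the block (19 of all genes). Within LF at day 7 it was 6 with the block (all lower, beside 683 of all genes). With quantile normalization it was 6 there (all higher, beside 336 of all genes). It was 1 there with the mean of probe sets (206), and 4 at day 10 with quantile normalization (151). For F and LF against L and FL it was 5 with the block (113 of all genes) and 8 with quantile normalization (215). For F minus L at day 0 it was 4 with the block (160) and 8 with quantile normalization (222). Probe set use at day 10 was called for 4 with the block and 2 with quantile normalization, given without the shares of all genes in those fits. Slc25a25 at day 7 was at 0.42 without F and 0.70 without LF. The causes of these shifts were not tested. The block moved the strain count from 47 to 60 (35.3% of members, beside 24% of all genes). Among the members it added there, Slc26a4 was at 0.15 (adjusted p = 0.0372) and Slc28a2 at -0.22 (adjusted p = 0.0373). Beside these and those printed with the results, it changed no call that the report names.

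With arrays or replicates left out, the count ran from 0 to 19 at day 7, from 1 to 12 at day 10, and stayed at 0 for day 10 against day 7, L at either day and both F minus L responses. It ran from 0 to 4 for F at day 7, 0 to 1 for FL at day 7, 0 to 6 for LF at day 7, 0 to 2 for F at day 10, 0 to 1 for FL and for LF at day 10, 28 to 50 for F and FL against L and LF, 0 to 2 for F and LF against L and FL, 1 to 3 for F minus L at day 0 and 0 to 1 for the interaction. These ranges stand without the counts over all genes in the same fits. Slc25a25 ran from 0.72 to 0.84 at day 7, where its call was lost without replicate number 2 or 3, and from 0.92 to 1.18 at day 10. With 4 arrays per group, differences within a strain below the array spread were not detectable.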

Other observations

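Transporters outside the solute carrier symbols were read for comparison: 14 organic anion polypeptides (Slco), 28 ATP-binding cassette proteins (Abc) and 10 aquaporins (Aqp). Of these 52 genes 0 rose and 7 fell at day 7, where 1.1% of all genes rose and 3.88% fell, and 0 rose and 3 fell at day 10, where 1.24% rose and 1.06% fell. The vasopressin-regulated water channel of the collecting duct, Aqp2, fell by 0.49 ± 0.08 at day 7 (adjusted p = 0.000132) and by 0.61 at day 10 (adjusted p = 4.15e-06). The basolateral channel Aqp4 fell by 0.43 and 0.33 (adjusted p = 0.00209 and 0.0312), and the organic anion transporter Slco2b1 by 0.36 and 0.28 (adjusted p = 0.00307 and 0.0363). Between F and FL and L and LF, 2 were higher and 12 lower, where 4.29% and 13% of all genes were. Among them Abcb10, a mitochondrial exporter, was at -1.06 (adjusted p = 1.02e-18), Slco1a6 at -0.76 (adjusted p = 2.83e-15) and Abca7, a lipid transporter, at 0.25 (adjusted p = 3.46e-06), all with limma.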
